A study of Homo sapiens with 9 samples.

Results

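EREG, MET and EGR1 are a growth factor, a growth factor receptor and a transcription factor gene of one signalling route, and their transcripts are described here across 9 RNA-seq libraries of Caki-1 cells. They were chosen by gene symbol after earlier results had shown them higher in the knockdown groups than in control. The 3 genes account for 4 of the 20909 transcript rows in the deposited table, which covers 6819 genes. EREG has 1 row (NM_001432), MET has 2 (NM_001324402 and NM_001324401) and EGR1 has 1 (NM_001964), and all 4 passed the filter on low counts that left 17495 rows. Because both knockdown groups were used in choosing the genes, their differences from control are given as a description without a test. The difference between the knockdown groups was not used in choosing the genes and was tested. However, 1 knockdown library that enters this test also helped decide which rows are listed, as described below.

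Epiregulin, the product of EREG, is made as a membrane-bound precursor. Once freed by proteases it binds the EGF receptor and ERBB4 on the same or neighbouring cells. MET is the receptor tyrosine kinase for hepatocyte growth factor (HGF), a ligand that drives growth and migration of epithelial cells, and activating MET mutations cause a hereditary form of papillary kidney cancer. Both kinds of receptor feed the RAS and ERK kinases. Active ERK phosphorylates the ternary complex factors that sit with serum response factor (SRF) on the EGR1 promoter, and EGR1, an immediate early zinc finger protein, is transcribed within minutes of such a stimulus.

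Caki-1 is an established human line from a clear cell renal cell carcinoma. Per the labels the SH1 group (3 libraries) and the SH3 group (3 libraries) are TAF1D knockdowns made with short hairpin RNAs in this line, and the control group (3 libraries) has the genotype WT. What the names SH1 and SH3 mean is not in the labels, nor is whether a group is a clone or a pool of cells. The TAF1D protein is a subunit of the factor that recruits RNA polymerase I to ribosomal RNA genes. Libraries are numbered 1 to 3 in each group without a statement that they are separate cultures, so p-values measure the spread between these samples, which may be technical. TAF1D itself was not analysed here, and its own level therefore gives no check of the labels.

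Deposited estimated counts over the listed rows added up to between 1358215 and 1596467 per library, which is part of a library (4.202% to 5.176% of its TPM) and not its depth. The table is a selection, since all rows (100%) differ at least 2-fold in estimated count between SH1 1 and control 1, against 63.11% to 74.93% of rows in the other 35 pairs of libraries. SH1 1 and control 1 were thus the pair that decided which rows are listed, and their values are set further apart by that choice. Of 16 renal epithelial markers 3 were listed (PAX8, KRT19 and CDH6), and PAX8, a transcription factor of the kidney lineage, was above 0 in every library. None of 6 endothelial and none of 6 blood cell markers was listed, and of 6 fibroblast markers only PDGFRB was, at 0.34 FPKM or less. Because the table is a selection, a marker that is not listed may still be expressed. Summed over the 3 renal markers the level was 22.27 to 27.11 FPKM in SH1, 63.26 to 76.64 in SH3 and 73.45 to 93.34 in control, most of it KRT19, a keratin of simple epithelia. PAX8 went the other way in SH1, with 6.65, 4.44 and 5.16 FPKM there, 2.88, 9.97 and 3.05 in SH3 and 2.26, 3.08 and 1.44 in control, so that SH1 lay above control and SH3 overlapped with it. CDH6 had 0.23 to 0.35 FPKM in SH1, 0.09 to 0.11 in SH3 and 0.78 to 1.08 in control. Both knockdown groups thus lay below control in CDH6, and SH3 was the lowest. The part of these differences in the results was not tested, and in bulk RNA fewer cells of a type and less RNA per cell cannot be told apart.

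The promoters of the 3 genes are shown because each gene had a listed transcript that was higher in both knockdown groups than in control, and because EGR1 is the standard example of an SRF-driven promoter. Each run holds the 250 bases before the RefSeq start of the gene, read 5′ to 3′ on the + strand of GRCh38.p14. EREG is at chr4:74364895-74365144, MET at chr7:116671946-116672195 and EGR1 at chr5:138465229-138465478. Whether the listed MET transcripts start at the end of the MET run was not tested. Capitals mark matches to the CArG box (the SRF motif), CGTCA (the half-site of cAMP response elements), CAGGAAG (an ETS core), TGANTCA (AP-1), GCGNGGGCG (the EGR site) and TATAAA (the TATA box), each searched on both strands.
EREG: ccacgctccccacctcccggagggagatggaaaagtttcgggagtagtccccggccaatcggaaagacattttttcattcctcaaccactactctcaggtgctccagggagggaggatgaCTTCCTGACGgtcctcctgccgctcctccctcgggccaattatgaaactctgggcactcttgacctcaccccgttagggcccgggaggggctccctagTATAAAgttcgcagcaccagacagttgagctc
MET: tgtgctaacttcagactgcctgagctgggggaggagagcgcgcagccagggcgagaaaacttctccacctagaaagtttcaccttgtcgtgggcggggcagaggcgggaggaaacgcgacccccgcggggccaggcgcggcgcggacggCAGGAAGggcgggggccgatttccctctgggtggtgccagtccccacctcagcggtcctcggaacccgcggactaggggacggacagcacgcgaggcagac
EGR1: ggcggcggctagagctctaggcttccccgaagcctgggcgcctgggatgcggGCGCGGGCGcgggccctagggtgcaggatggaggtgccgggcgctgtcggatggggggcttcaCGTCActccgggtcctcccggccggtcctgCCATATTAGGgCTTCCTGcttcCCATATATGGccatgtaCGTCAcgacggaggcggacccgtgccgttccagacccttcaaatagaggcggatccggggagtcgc

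EGR1 held 2 CArG boxes, at 105 to 96 and 83 to 74 bases before the start. An ETS core lay between them on the minus strand at 94 to 88 bases, next to the distal box. A CArG box was found in 407 of 35116 promoters of the same length (1.16%), and 11 promoters (0.0313%) had 2 of them. The EGR1 window also held CGTCA at 135 to 131 and 66 to 62 bases and an EGR site at 198 to 190 bases, motifs present in 21.2% and 8.41% of promoters. EREG had a TATA box at 32 to 27 bases (10.7% of promoters), and an ETS core at 130 to 124 bases that overlaps a CGTCA on the same minus strand at 125 to 121 bases. MET had 1 match, an ETS core at 101 to 95 bases, a motif found in 10.5% of promoters and the only one that the 3 windows share. The AP-1 motif (6.57% of promoters) was in none of the 3 windows. These matches describe letters and were not tested as binding sites.

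EREG, the ligand, was several-fold higher in both knockdown groups than in control. FPKM, which scales counts to transcript length and library size, was 8.95, 7.76 and 5.64 in SH1 1, 2 and 3, 10.84, 9.77 and 9.03 in SH3 1, 2 and 3, and 1.65, 1.08 and 1.23 in control 1, 2 and 3. Every knockdown library lay above every control library, and the lowest, SH1 3, was 3.42-fold above the highest control. Such a complete separation, higher in the named group, was found in 8.79% of all tested rows for SH1 against control, in 7.02% for SH3 against control and in 2.31% for both groups at once. These percentages are given as background only, since EREG was picked on this contrast.

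EREG averaged 7.45 ± 1.68 FPKM in SH1 and 9.88 ± 0.91 in SH3, against 1.32 ± 0.295 in control (SD, n = 3 each). The fitted log2 fold change was 2.39 ± 0.37 (SE; 95% interval 1.55 to 3.23) for SH1 against control and 2.86 ± 0.38 (2.01 to 3.72) for SH3 against control. Without SH1 1 and control 1 these were 2.44 and 3.05. EREG estimated counts were 794.41, 694.06 and 517.86 in SH1, 977.21, 886.02 and 827.01 in SH3 and 147.07, 98.01 and 107.63 in control, so counting error alone was 3.2% to 10.1% of a value. By mean FPKM EREG ranked 321 among the listed rows in SH1 and 204 in SH3, against 3601 in control.

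Between the knockdown groups every SH3 library had more EREG than every SH1 library, but by as little as 1.01-fold (SH3 3 over SH1 1). In this direction 7.44% of all rows had no overlap. The edgeR difference of SH3 against SH1 was 0.48 ± 0.35 on the log2 scale with a 95% interval of -0.32 to 1.27 (adjusted p = 1, unadjusted p = 0.211). The interval takes in both no difference and a log2 difference of 1.27.

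**Figure D1:**
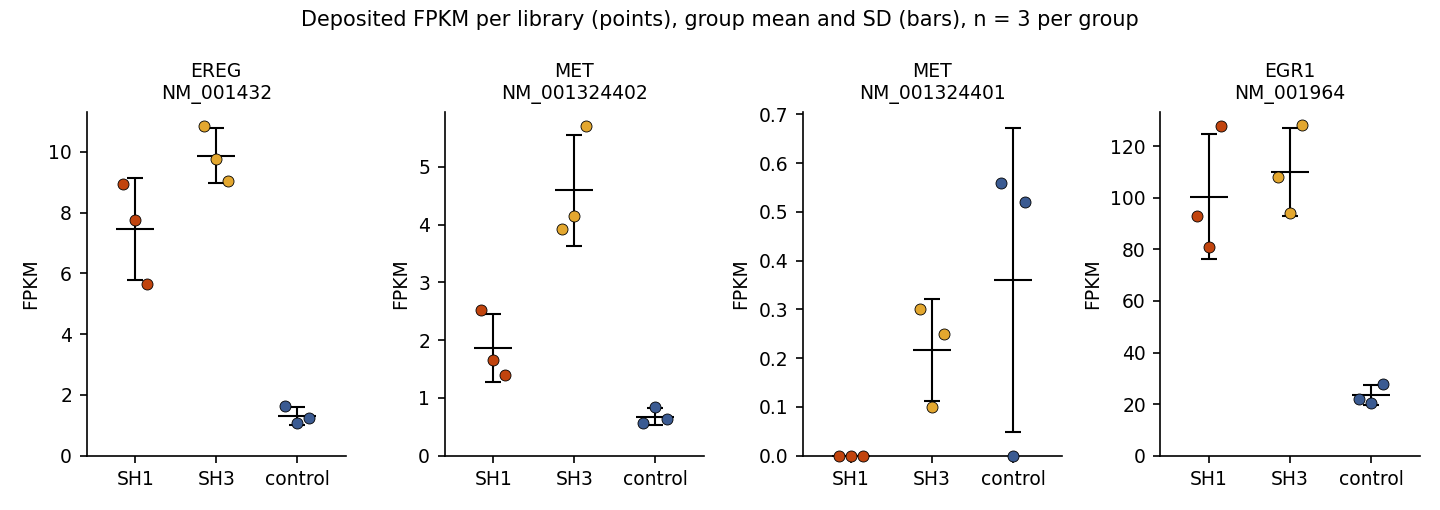
Deposited FPKM (vertical axes, each on its own scale from 0) of the EREG, MET and EGR1 rows in SH1, SH3 and control libraries; points are libraries, the long bar is the group mean and the capped bar 1 SD (n = 3 each). In the EREG, NM_001324402 and EGR1 panels all SH1 and SH3 points lie above all control points, whereas NM_001324401 is at 0 in SH1 and in control 2.

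For MET, the receptor, the main listed row and the sum of both listed rows were higher in SH3 than in SH1. Both were also higher in each knockdown group than in control. The main row, NM_001324402, had 2.53, 1.66 and 1.40 FPKM in SH1 1, 2 and 3, 3.93, 4.15 and 5.70 in SH3 1, 2 and 3, and 0.56, 0.84 and 0.63 in control 1, 2 and 3. The 3 groups did not overlap, with every SH3 library above every SH1 library and every SH1 library above every control library. Of all tested rows, 8.79% had SH1 wholly above control and 7.44% had SH3 wholly above SH1. The share with all 3 groups in this order was not counted, and MET was picked on its differences from control.

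NM_001324402 averaged 1.86 ± 0.592 FPKM in SH1 and 4.59 ± 0.965 in SH3, against 0.677 ± 0.146 in control (SD, n = 3 each). On the log2 scale the fitted fold change was 1.35 ± 0.54 (95% interval 0.14 to 2.56) for SH1 against control and 2.72 ± 0.56 (1.45 to 3.99) for SH3 against control. Leaving out SH1 1 and control 1 gave 0.96 and 2.59. By mean FPKM this row ranked 2585 in SH1, 742 in SH3 and 6623 in control. MET counts are low, 61.26 to 93.12 in control and 156.13 to 635.71 in the knockdown groups, and counting error ranged from 3.97% to 12.8%.

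The other listed MET row, NM_001324401, had an estimated count of 0 in all 3 SH1 libraries. It had 18.44, 6.2 and 15.68 in SH3 1, 2 and 3, and 34.9, 0 and 31.56 in control 1, 2 and 3. The SH1 libraries and control 2 were thus both at 0, so SH1 and control overlap, and SH3 lay above SH1. In the libraries where both rows were above 0, NM_001324402 had 1.76 to 1.79 times as many counts per FPKM as NM_001324401. With a floor of 3 counts over the group for SH1, NM_001324401 was 13.4-fold higher in SH3 than in SH1. This value leaves out the error of the SH3 counts and how reads were divided between the 2 rows. The fit of SH3 against control gave -0.80 ± 2.02 on the log2 scale, with an interval of -5.58 to 3.98.

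The share of listed MET counts assigned to NM_001324401 was 0% in SH1. By counting error alone, a count of 0 there allows up to 1.1%, 1.66% and 1.92% in libraries 1, 2 and 3. In SH3 it was 4.1%, 1.34% and 2.41%, and in control 36.3%, 0% (allowing 3.22%) and 32.0%. In control the 2 rows moved in opposite directions, with the library at 0 for NM_001324401 having the highest count of NM_001324402. Their sum was nearly constant there, at 96.16, 93.12 and 98.72 counts, a coefficient of variation of 2.92% against 22.95% for NM_001324402 and 86.9% for NM_001324401. How the authors' counting divided reads between transcripts of 1 gene is not given in the sources used here, so the division between these rows is uncertain and the sum is given beside them. RefSeq lists 6 MET transcripts, and the other 4 were not analysed here. The table is a selection of rows, so the 2 MET rows and their sum describe these transcripts and not the gene.

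**Figure D2:**
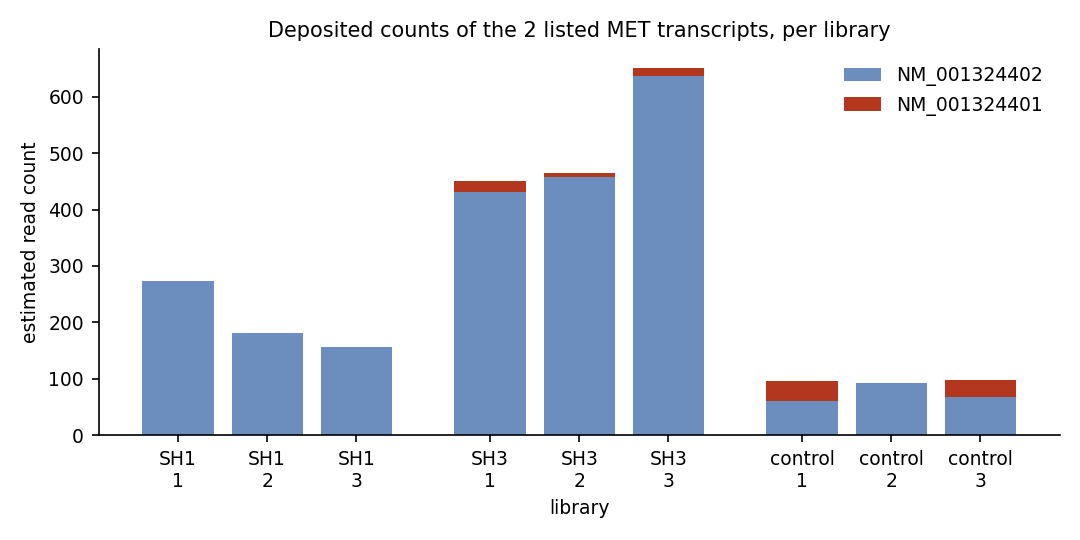
Deposited estimated read counts (vertical axis, from 0) of the 2 listed MET rows stacked for each SH1, SH3 and control library. The stacks of the 3 control libraries are between 93.12 and 98.72 counts high although their division differs, and the SH3 stacks are the highest at 449.79 to 651.39.

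Summed over both rows MET had 272.89, 180.92 and 156.13 counts in SH1, 449.79, 463.88 and 651.39 in SH3 and the control values above. The groups again did not overlap, in the order SH3, SH1, control, and the share of all sums per gene in this order was not counted. The fitted log2 fold change of the sum was 0.91 ± 0.28 (95% interval 0.26 to 1.55) for SH1 against control and 2.34 ± 0.29 (1.67 to 3.01) for SH3 against control, and 0.66 and 2.31 without SH1 1 and control 1. The sum therefore put SH1 at 1.88-fold of control, where the main row alone put it at 2.54-fold.

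SH3 exceeded SH1 in MET in all 3 libraries on both readings, by 1.37 ± 0.54 (0.16 to 2.58) for NM_001324402 and 1.43 ± 0.28 (0.78 to 2.08) for the sum, on the log2 scale. In edgeR the adjusted p was 0.778 for NM_001324402 (unadjusted 0.0301) and 0.0591 for the sum (unadjusted p = 0.000953), both over the threshold of 0.05. In DESeq2 the adjusted p of the sum was 0.000127, and over the other settings tried it reached 0.235. For NM_001324401 the edgeR adjusted p was 0.778 (unadjusted 0.0269). Of the 4 rows of EREG, MET and EGR1, edgeR called 0 in SH3 against SH1, where it called 0.0972% of all rows. At an unadjusted p under 0.05 it marked 2, both of MET, against 6.25% of all rows, and DESeq2 called 0 of the 4 rows (2.45% of all). Among sums per gene edgeR called 1.36%, and the share that DESeq2 called was not counted. The DESeq2 call of the MET sum therefore has no background beside it.

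EGR1, the immediate early gene, was among the most abundant listed rows and was higher in both knockdown groups than in control. It had 92.79, 81.06 and 127.74 FPKM in SH1 1, 2 and 3, 107.92, 93.97 and 128.08 in SH3 1, 2 and 3, and 22.05, 20.35 and 27.82 in control 1, 2 and 3. Both knockdown groups lay wholly above control, the lowest of their libraries (SH1 2) being 2.91-fold above the highest control, and the knockdown groups overlapped each other. Of all tested rows, 2.31% had both knockdown groups wholly above control, a share given as background only since EGR1 was picked on this contrast. In each group library 2 was the lowest and library 3 the highest, although the numbers are not known to pair libraries.

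EGR1 averaged 100.5 ± 24.3 FPKM in SH1 and 110.0 ± 17.1 in SH3, against 23.4 ± 3.92 in control (SD, n = 3 each). On the log2 scale the fitted change was 2.0 ± 0.20 (1.53 to 2.46) for SH1 against control and 2.20 ± 0.21 (1.73 to 2.66) for SH3 against control, and without SH1 1 and control 1 it was 2.02 and 2.15. Counts were 4903.01 to 7928.66 in SH1, 5762.65 to 7934.65 in SH3 and 1254.18 to 1652.35 in control, which left a counting error of 1.12% to 2.82%. In rank of mean FPKM EGR1 stood at 7 in SH1, 6 in SH3 and 41 in control. The SH3 to SH1 difference was 0.20 ± 0.20 (-0.25 to 0.65; edgeR adjusted p = 1, unadjusted 0.338), an interval that takes in both no difference and a log2 difference of 0.65.

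**Figure D3:**
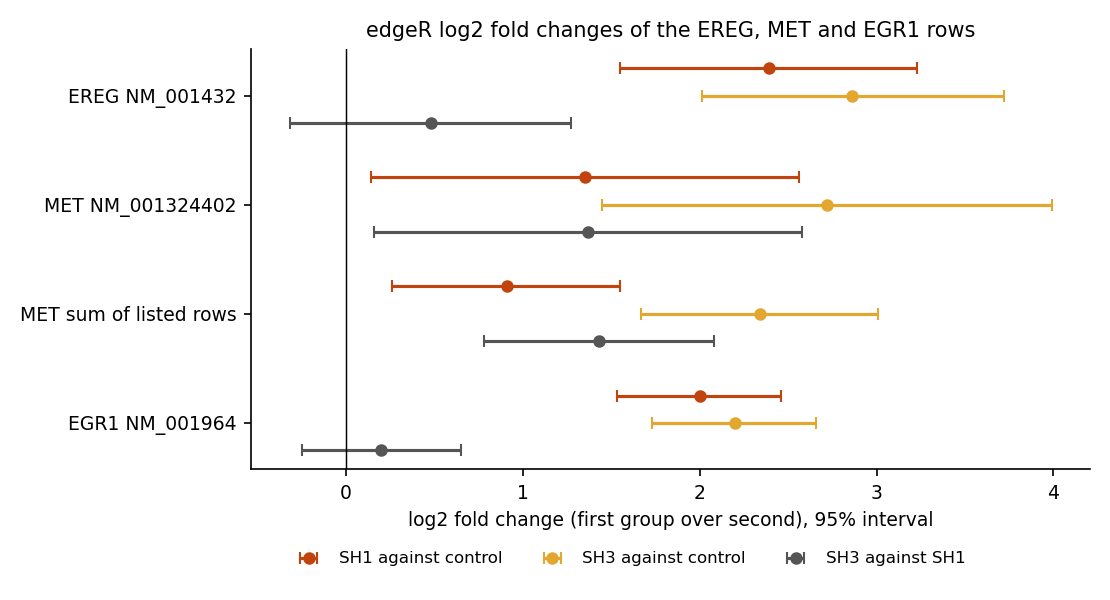
Fitted edgeR log2 fold changes (horizontal axis) with 95% intervals for EREG, the main MET row, the sum of the MET rows and EGR1, for SH1 against control, SH3 against control and SH3 against SH1. The SH3 against SH1 intervals of EREG and EGR1 include 0, and that of the MET sum runs from 0.78 to 2.08.

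With MET read by its main row or the sum, the group means of all 3 genes had the order SH3, SH1, control. The genes differed in how far the groups lay apart and in how the libraries were ordered. Ratios of mean FPKM to control were 5.64 in SH1 and 7.49 in SH3 for EREG, 2.75 and 6.79 for the main MET row, and 4.29 and 4.70 for EGR1. MET thus had the lowest SH1 ratio of the 3 genes, and EGR1 the lowest SH3 ratio. Summed over both rows MET had ratios of 1.80 and 4.64, so its order with EGR1 in SH3 depends on the reading. On log2(FPKM + 1), a scale that compresses low values, SH3 against control was 2.23 for EREG and 1.73 for the main MET row. Within SH1, library 1 had the most EREG and MET, and library 3 the least of both but the most EGR1. Within SH3, EREG was highest in library 1, and MET and EGR1 were highest in library 3. On the deposited normalized read count, scaled by 1 factor per library, the group means had the same order. They were 632.2, 872.5 and 117.6 for EREG in SH1, SH3 and control, 192.3, 493.8 and 74.6 for the main MET row, and 5775, 6562 and 1412 for EGR1. The pathway annotation deposited with the table puts EREG in 4 KEGG pathways, MET in 24 and EGR1 in 6. EREG and MET share the MAPK and PI3K-Akt signalling pathways, and EGR1 shares 0 with either.

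Rows of other genes with the profile most like each member over the 9 libraries were listed as a description, among 4934 rows of at least 1 FPKM on average. All of these correlations share the libraries and the step between control and knockdown groups. EREG was most like BTF3L4 (Pearson r = 0.99, Spearman rho = 0.93) and 1 row each of WSB1 (XM_017024436; 0.99 and 0.97) and SYNCRIP (XM_017010177; 0.99 and 0.95). BTF3L4 averaged 13.5 FPKM in SH1, 14.1 in SH3 and 6.05 in control, and the WSB1 and SYNCRIP rows were listed at 0 in control. For the main MET row they were UPP1, a uridine phosphorylase (r = 0.99, rho = 0.98), SEL1L3 (0.96, 0.93) and HMOX1, the inducible heme oxygenase (0.94, 0.92). Like MET, each was highest in SH3, with means of 2.14, 5.27 and 88.4 FPKM there, against 1.05, 1.80 and 49.2 in SH1 and 0.393, 0.81 and 25.8 in control. EGR1 was most like HES1, a Notch-responsive repressor (r = 0.98, rho = 0.90), TNFAIP3, an inhibitor of NF-kappaB signalling (0.98, 0.90), and TFPI, an inhibitor of coagulation (0.98, 0.85). HES1 averaged 48.4 FPKM in SH1, 47.8 in SH3 and 11.8 in control.

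The other genes of the route were taken from 10 lists with 195 genes besides EREG, MET and EGR1. Of these 98 were in the table and 94 were tested, each by its row of highest mean count. In edgeR, 0 of the 94 passed the adjusted threshold in SH1 against control, SH3 against control, the average of both against control or SH3 against SH1. Over all rows it called 0.137%, 0.0286%, 0.12% and 0.0972% in these comparisons. At an unadjusted p under 0.05, 10 were higher and 6 lower in SH1 than in control, 5 higher and 1 lower in SH3 than in control, 7 higher and 2 lower in the average, and 5 higher and 4 lower in SH3 than in SH1. That unadjusted p was reached by 7.81%, 5.85%, 7.39% and 6.25% of all rows. DESeq2 called 2, 3, 3 and 2 of the genes, and 2.97%, 2.19%, 2.81% and 2.45% of all rows. The median log2 fold change of the 94 was 0.49 for SH1 and 0.16 for SH3 against control, and -0.33 for SH3 against SH1, beside 0.04, 0.03 and 0.00 over all rows. These sets of rows are unlike, since the 94 genes enter by their most abundant row and all rows take in every tested transcript. Whether the lists as a whole were shifted was not tested.

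**Figure D4:**
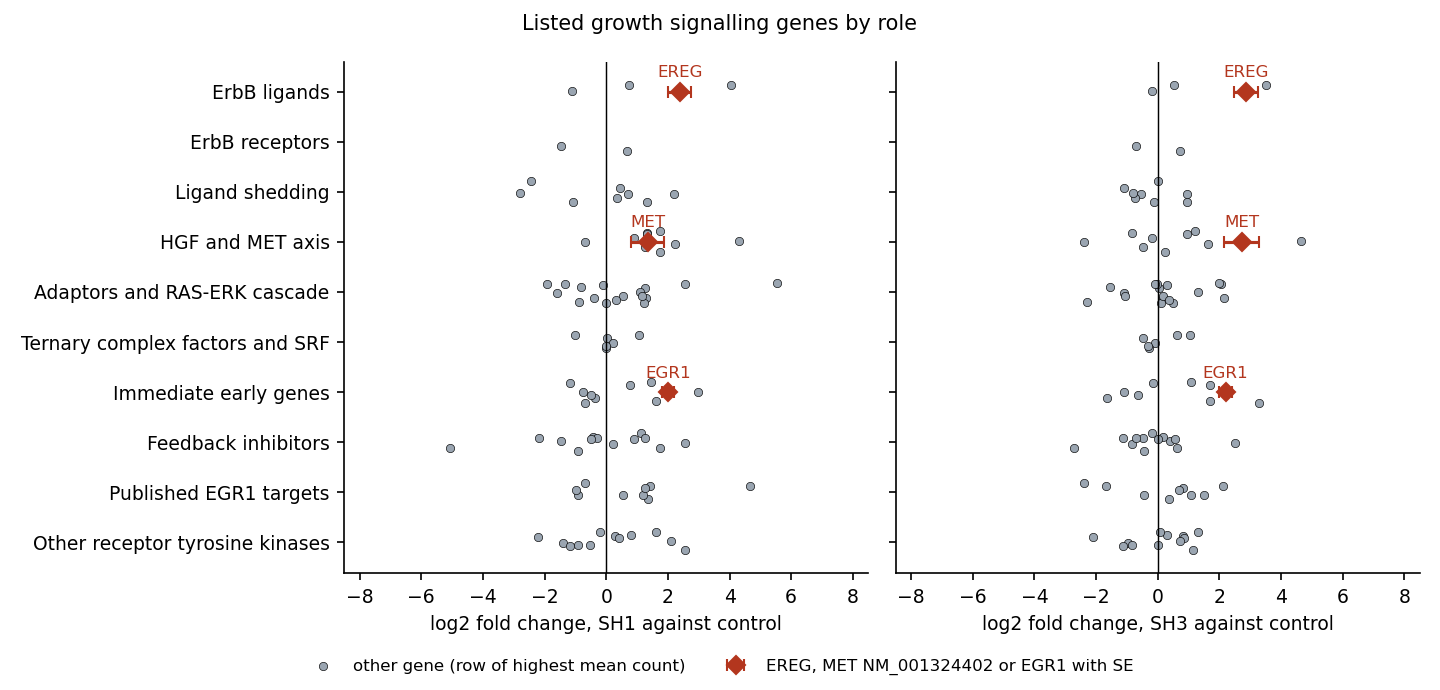
edgeR log2 fold change (horizontal axes) for SH1 against control on the left and SH3 against control on the right, by signalling role; grey points are other listed genes, red diamonds EREG, the main MET row and EGR1 with 1 SE. A total of 85 genes are drawn, 9 with a group wholly at 0 are left out, and the grey points spread on both sides of 0 in most rows.

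Among ligands of the EGF receptor family, 3 other than EREG were tested and 0 passed. TGFA, a ligand of the EGF receptor, had 3.62, 2.49 and 4.53 FPKM in SH1, 2.41, 0.95 and 3.54 in SH3 and 0, 0.58 and 0 in control. The 6 knockdown libraries were above the 3 controls, but at these low counts the log2 fold change was 4.05 ± 1.89 for SH1 (edgeR adjusted p = 0.637) and 3.50 ± 1.85 for SH3 (adjusted p = 0.842). The neuregulin genes NRG1 and NRG2, whose products bind ERBB3 and ERBB4, had rows of 1.66 FPKM or less that overlapped between groups. For EGFR, the receptor of epiregulin, the tested row lay on the other side of control from EREG. This row, NM_001346900, had 27.2, 21.1 and 6.6 FPKM in SH1, 35.5, 16.4 and 38.0 in SH3 and 54.3, 42.2 and 45.5 in control, with all knockdown libraries below all controls. The log2 fold change of the row was -1.48 ± 0.48 in SH1 (edgeR adjusted p = 0.588) and -0.70 ± 0.47 in SH3 (adjusted p = 1). EGFR has 2 rows in the table, which is a selection, so this is 1 transcript and not the gene. ERBB2, the other tested receptor of the family, had groups that overlapped.

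The list of proteases that free ErbB ligands had 9 tested genes and 0 calls in edgeR, with medians of 0.45 in SH1 and -0.11 in SH3 against control. ADAM8, a membrane metalloproteinase, had 1.95, 2.8 and 3.6 FPKM in SH1, 0.55, 0.40 and 0.21 in SH3 and 0.66, 0.47 and 0.56 in control, so that SH1 stood above both other groups. Summed per gene, ADAM8 passed the edgeR threshold in SH1 against control (log2 2.24, adjusted p = 0.0367) and in SH3 against SH1 (-2.39, adjusted p = 0.0377), in fits that called 2.14% and 1.36% of genes. ADAM17, the main sheddase of EGF receptor ligands, was named after its values were seen. Its row NM_001382778 was listed at 0 in all 3 controls and at 0.03 to 2.22 FPKM in the knockdown libraries, and DESeq2 called it in SH1 (adjusted p = 0.0103) and SH3 (adjusted p = 0.00191) against control while edgeR did not (adjusted p = 0.571 and 0.821).

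On the HGF and MET axis 10 genes were tested and 0 passed. Its medians were 1.54 in SH1 and 0.02 in SH3 against control and -1.30 in SH3 against SH1, with 9, 5 and 1 of the 10 genes above 0. The main MET row and the sum of the listed MET rows, in contrast, were higher in SH3 than in SH1. SPINT2, an inhibitor of the proteases that activate HGF, had 12.2, 13.1 and 15.2 FPKM in SH1, 9.34, 11.1 and 9.55 in SH3 and 4.62, 5.29 and 5.11 in control. The 3 groups of SPINT2 did not overlap, with SH1 the highest. Among the 94 genes tested over all lists, 20.2% had SH1 wholly above control, beside 8.79% of all rows. SH3 was wholly below SH1 in 13.8% of the 94 genes, a share that was not counted over all rows. The log2 fold change of SPINT2 was 1.32 ± 0.45 in SH1 and 0.96 ± 0.45 in SH3 (edgeR adjusted p = 0.588 and 0.821). In the edgeR fit of sums per gene SPINT2 passed in SH1 against control (1.26, adjusted p = 0.0249) and in the average (1.09, adjusted p = 0.0491), where 1.11% of genes were called. PTPRJ, a phosphatase that acts on MET, had 3.81 to 16.9 FPKM in SH1, 1.32 to 7.29 in SH3 and 0.26 to 4.95 in control, with overlap between all groups. CD44, a co-receptor of MET, and RANBP9, a MET-binding scaffold, spread over 0.65 to 8.77 and 0 to 6.81 FPKM without separation of the knockdown groups from control.

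Of 18 adaptors and RAS-ERK cascade genes 0 passed, with medians of 0.42 in SH1 and 0.16 in SH3 against control. GAB2, a docking protein of receptor tyrosine kinases, had 5.34, 5.03 and 5.98 FPKM in SH1, 2.0, 2.41 and 2.68 in SH3 and 1.72, 2.4 and 2.02 in control. GAB2 was thus set apart in SH1 (1.30 ± 0.40 against control, edgeR adjusted p = 0.579) and overlapped with control in SH3 (0.17 ± 0.40, adjusted p = 1). CRK, an adaptor protein, had 1.97 to 3.54 FPKM in SH1, 5.78 to 6.79 in SH3 and 3.25 to 9.75 in control. The row of SHC1, an adaptor of receptor tyrosine kinases, varied widely within groups, from 1.27 to 54.3 FPKM among the controls alone. Among 9 ternary complex factors, SRF partners and related ERK-responsive factors the medians were 0.04 and -0.10, with 0 called in edgeR. CREB1, which binds cAMP response elements, had 6.74 to 11.3 FPKM in SH1, 5.36 to 7.19 in SH3 and 3.11 to 9.87 in control, with overlap. ELK3, a ternary complex factor, was listed at 0 in all controls and from 0 to 9.25 FPKM in the knockdown libraries.

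Immediate early genes other than EGR1 lay on both sides of control. Of 10 tested, 0 passed, 5 had a log2 fold change above 0 in SH1 and 6 in SH3, and the medians were 0.20 and 1.39. MCL1, a survival protein of the BCL2 family, had 11.3, 8.34 and 7.25 FPKM in SH1, 2.86, 12.1 and 4.85 in SH3 and 5.01, 1.77 and 2.23 in control, separate from control in SH1 but not in SH3. FOSB, an AP-1 subunit, had 2.74, 3.67 and 5.65 FPKM in SH1, 2.56, 3.73 and 0.37 in SH3 and 0.32, 0 and 1.14 in control. MYC had 1.33, 1.84 and 2.23 FPKM in SH1, 3.85, 3.80 and 2.82 in SH3 and 3.50, 3.83 and 4.15 in control. MYC in SH1 thus lay below both other groups (-1.19 ± 0.50 against control, edgeR adjusted p = 0.628). FOSL1 overlapped between groups, at 0.96 to 7.14 FPKM. EGR2, a relative of EGR1 named after its values were seen, was listed at 0 in control and at 0.55 FPKM or less in the knockdown libraries.

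Feedback inhibitors, which end receptor and ERK signalling, had 14 tested genes, 0 calls and medians of -0.36 in SH1 and -0.32 in SH3 against control. SOCS3, an inhibitor of cytokine signalling, had 9.45, 10 and 14 FPKM in SH1, 10.6, 7.43 and 6.86 in SH3 and 4.19, 4.93 and 7.50 in control, and only SH1 was clear of control. NAB1 and NAB2, the co-repressors that bind EGR1, had 0 to 4.69 FPKM in SH1, 1.73 to 4.52 in SH3 and 1.51 to 4.57 in control, all overlapping. PEA15, which holds ERK in the cytoplasm, had 0 to 2.72 FPKM in SH1, 3.16 to 7.25 in SH3 and 6.6 to 8.18 in control.

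Of 10 tested genes with EGR1 sites described in other systems, 0 passed and the medians were 0.86 in SH1 and 0.53 in SH3 against control. CDKN1A, the p21 inhibitor of cyclin-dependent kinases, had 12.8, 13.1 and 15.6 FPKM in SH1, 15.5, 16.7 and 17.4 in SH3 and 5.57, 5.89 and 5.48 in control. All 6 knockdown libraries of CDKN1A were above all controls, at a log2 fold change of 1.18 ± 0.34 in SH1 and 1.51 ± 0.34 in SH3 (edgeR adjusted p = 0.534 and 0.502). In the fit of sums per gene CDKN1A passed in both, with 1.17 (adjusted p = 0.0166) and 1.51 (adjusted p = 0.0159), where 2.14% and 0.407% of genes were called. The fibronectin row XM_005246401 (FN1) was listed at 0 in all SH3 libraries, at 5.35 to 20.9 FPKM in SH1 and at 0.55 to 17.1 in control. DESeq2 called that FN1 row in SH3 against control (adjusted p = 1.11e-09) and edgeR did not (adjusted p = 0.134). FN1 has 4 rows in the table, so this is 1 transcript and not the gene.

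Of 12 other receptor tyrosine kinases 0 passed, and the medians were 0.05 in SH1 and 0.18 in SH3 against control. EPHB2, an ephrin receptor, had 1.94, 3.26 and 3.0 FPKM in SH1, 4.96, 4.92 and 5.27 in SH3 and 4.56, 5.25 and 4.69 in control, so SH1 was the low group. FGFR1, a fibroblast growth factor receptor, had 0.39, 0.58 and 1.14 FPKM in SH1, 2.72, 1.9 and 1.18 in SH3 and 0.9, 0.79 and 0.57 in control, with SH3 above both other groups (1.32 ± 0.87 against control on the log2 scale, edgeR adjusted p = 1). The rows of EPHA2 and PTK7 overlapped between all groups. Over all 94 genes, 6 had every knockdown library above every control (ADAM17, CDKN1A, IGF2, SPINT2, TGFA and VEGFA), as EREG, the main MET row and EGR1 did, and 1 had every knockdown library below (EGFR). That is 6.38% and 1.06% of the genes, beside 2.31% and 2.21% of all rows. The genes in this count were named after their values were seen, each by its most abundant row, and nothing particular to the lists is drawn from it.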

How the data were processed

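RNA-seq of Caki-1 cells was analysed in 9 libraries, grouped by label into SH1, SH3 and control (3 each). Per the file headers the authors deposited 4 values per transcript and library: an estimated count (expected count; 65.11% of values not whole), FPKM, TPM and a normalized read count. This last signal was made by the authors by dividing the rounded-up count by 1 factor per library (it equals that in 100% of values, relative tolerance 1e-06), per the file headers and values. The aligner and counter are not given in the sources used here. The submitters' processing notes name build mm10, but 99.957% of rows carry human gene numbers and were read as human. Deposited FPKM was used for levels, TPM for the share of a library that is listed.

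Estimated counts were rounded and fitted with edgeR 4.0.16 (R 4.3.3; TMM, filterByExpr with minimum count 10, robust quasi-likelihood test) on all rows and all 9 libraries, and p-values were adjusted by Benjamini-Hochberg over all rows (threshold 0.05). The SE is the log2 fold change over the square root of F. DESeq2 1.42.0 and limma 3.58.1 were among the alternatives. The fits were tested on simulated data. Counting errors, floors and bounds cover counting error only. Promoter sequences are from RefSeq (GRCh38.p14). Members, lists and tests were chosen with earlier results of these data known. Named genes were all rows of EREG, MET and EGR1, list genes past the threshold, up to 4 genes per list of highest mean FPKM, and the 3 rows most correlated with each member in log2 CPM. Of the list genes that this rule names, 2 are not reported here.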

Additional observations from a re-analysis of the deposited data

How the results depend on the processing

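The members' values were recomputed with other scaling, filters, tests, samples and row sums. Of 331 values 317 kept their direction and size or side of the threshold, 13 moved, 1 became stronger and 0 reversed. In limma on log2(FPKM + 1), which understates changes of low genes, SH1, SH3 and their average against control were 1.85, 2.23 and 2.04 for EREG, 0.76, 1.73 and 1.24 for the main MET row and 0.48, 1.5 and 0.99 for the MET sum. Using sums in place of the main MET row gave 0.91, 2.34 and 1.62, and leaving out SH1 1 and control 1 gave 0.96 for that row in SH1. DESeq2 took the MET sum in SH3 against SH1 past the threshold (1.42, adjusted p = 0.000127), and its share of calls over all sums was not counted. With each library left out in turn, the changes against control in SH1, in SH3 and in both averaged, and then the SH3 to SH1 difference, ranged over 2.27 to 2.58, 2.78 to 3.07, 2.52 to 2.82 and 0.32 to 0.61 for EREG. For the main MET row they ranged over 1.09 to 1.54, 2.53 to 2.95, 1.91 to 2.25 and 1.19 to 1.64, for the MET sum over 0.72 to 1.10, 2.15 to 2.43, 1.53 to 1.73 and 1.24 to 1.65, and for EGR1 over 1.79 to 2.12, 2.07 to 2.34, 2.0 to 2.23 and 0.08 to 0.41. Among the 94 other signalling genes, where edgeR called 0 in each comparison, DESeq2 called 2, 3, 3 and 2 (ADAM17, ELK3, FN1 and SPRED2), and sums per gene 3, 1, 2 and 2 (ADAM8, CDKN1A, SPINT2 and DDR1). The limma fit on log2(FPKM + 0.1) called 1 in the average (CDKN1A) and 1 in SH3 against SH1 (FN1). With each library left out the counts were 0 to 0 in SH1 and 0 to 1 in the others (FN1 without control 1, NF1 without SH3 1). The causes of these shifts were not tested. Whether the labels' replicate numbers pair the samples could not be decided. Same-number correlations ran from -0.276 to 0.0324, and the lowest was that of control 1 with SH1 1. That pair decided which rows are listed, which sets its values apart. Without SH1 1 and control 1 the SH3 against SH1 difference was 0.61 for EREG and 1.64 for the main MET row (edgeR adjusted p = 0.851 and 0.608). It was 1.65 for the MET sum (edgeR adjusted p = 0.0763) and 0.13 for EGR1. With the replicate number as a block the SH3 against SH1 difference was 0.49 for EREG, 1.39 for the main MET row, 1.43 for the MET sum (edgeR adjusted p = 0.169) and 0.21 for EGR1. The block moved the edgeR counts over all rows to 16, 2, 7 and 5, where 24, 5, 21 and 17 were called without it. The fit of only the groups compared has no value for the average, which uses all groups. By Spearman instead of Pearson the closest rows were WSB1, SYNCRIP and CRTC3 for EREG, UPP1, RXYLT1 and LYRM1 for MET, and HMGA1, ANG and GSTT2 for EGR1. MET counts under 100 in control limit the precision of its fold change.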
